A study of Mus musculus with 6 samples.

Results

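Sectm1a and Sectm1b are the mouse genes of the secreted and transmembrane 1 family. They were picked by gene symbol, 2 of the 23127 genes in the table, and both passed the filter on low values that left 16095 tested genes. They were picked with their change after interferon gamma (IFNg) already known, so their levels and changes are described here and carry no test. RNA was measured in 6 libraries of cells with high Lgr5-GFP, a reporter that marks crypt base stem cells, taken by sorting from small intestine of C57BL/6 mice that carry the reporter. In the 3 IFNg libraries (6, 2 and 10) the sorted cells had stood with IFNg at 1 ng/ml for 1.5 h in a medium of EGF, Noggin and R-spondin1. The 3 untreated libraries (5, 1 and 9) are labelled as given no treatment. All 6 titles carry the number 1.5, but whether untreated cells stood in the medium for that time is not stated, so time in culture and IFNg cannot be told apart. Titles of libraries 6 and 5 also carry the tag GFP1 and those of the other 4 the tag GFP3, which is not explained there. Whether each library had its own animal is not stated, and p-values therefore describe the spread among these 6 libraries, which may be technical.

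The family encodes small proteins with an immunoglobulin-like fold outside the cell and a single membrane span, and the human protein is also released in soluble form. Human SECTM1 binds CD7, a receptor on T cells and natural killer (NK) cells, and mouse Sectm1a has been described as a ligand of GITR, the receptor encoded by Tnfrsf18 that co-stimulates T cells. An epithelial cell that makes such a ligand can be read by lymphocytes that touch it. IFNg, made by those lymphocytes, signals by way of a receptor of Ifngr1 and Ifngr2 chains and Jak kinases, and many promoters that respond to it early hold the so-called GAS element. Genes of the second wave are read through Irf1 and related factors at the so-called ISRE element.

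Both genes lie on the minus strand of chromosome 11 (GRCm38, the assembly also called mm10), side by side with Cd7. Sectm1b spans chr11:121053458-121063569 with 7 annotated transcripts, and Sectm1a spans chr11:121067407-121081220 with 5. No annotated gene overlaps either of them on either strand. The coding parts of the transcripts Sectm1b-201 (636 bases) and Sectm1a-201 (576 bases) matched at 364 of 575 aligned bases (63.3%). Of 2797 different stretches of 50 bases in Sectm1b transcripts and 1833 in Sectm1a transcripts, 0 occurred in the other member and 0 in transcripts of any other annotated gene, on either strand. Stretches of that length can thus be told apart between the members in this annotation.

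The 250 bases before the annotated start of Sectm1b (chr11:121063570-121063819, minus strand, RefSeq on GRCm38.p6) are shown because Sectm1b is the member with the larger change. Capitals mark TTCCCGAA, at bases -117 to -110 from the start.

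Sectm1b: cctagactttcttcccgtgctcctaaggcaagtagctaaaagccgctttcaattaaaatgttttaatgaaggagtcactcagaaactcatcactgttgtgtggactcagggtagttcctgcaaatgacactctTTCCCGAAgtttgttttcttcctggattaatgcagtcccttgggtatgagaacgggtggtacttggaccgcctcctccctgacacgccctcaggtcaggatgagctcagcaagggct

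On both strands, this window held 0 matches to the GAS letters TTCNNNGAA and 0 to the ISRE core, which is GAAA, any 2 bases and again GAAA. The GAS letters occurred in 7.02% and the ISRE core in 2.98% of 32851 annotated promoter windows of the same length. The marked stretch has TTC and GAA with 2 bases between them instead of 3 (TTCNNGAA), a pattern looked for after this sequence had been read, and 7.17% of all windows held it. Among 14 genes of a list of 22 IFNg-induced genes that had a promoter window, 6 held TTCNNNGAA, 10 held the ISRE core and 2 held TTCNNGAA. A match or its absence describes these letters in these windows only. Sectm1a was not matched in the promoter table.

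Sectm1b was abundant after IFNg and already present without it. Its scaled counts, which are read counts divided by 1 size factor per library, were 14997, 30857 and 17293 in IFNg 6, 2 and 10, against 2155, 2457 and 1436 in untreated 5, 1 and 9. Every IFNg library stood above every untreated one, which held for 8.13% of all tested genes. The lowest IFNg value was 6.10 times the highest untreated value. The means were 21049 ± 8571 and 2016 ± 525 scaled counts (IFNg and untreated, SD, n = 3 each), a ratio of 10.4. The change was computed as log2(scaled count + 1), a scale on which low genes appear to change by less than they did, and came to 3.35 ± 0.345 (SE).

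Sectm1a was a far less abundant transcript with a smaller difference. Its scaled counts were 426, 525 and 274 in IFNg 6, 2 and 10, against 197, 150 and 107 in untreated 5, 1 and 9. The IFNg group was higher without overlap, as in 8.13% of all tested genes. The gap was narrow, since the lowest IFNg value was 1.39 times the highest untreated value. The means were 408 ± 127 and 151 ± 44.96 scaled counts (IFNg and untreated, SD, n = 3 each), a ratio of 2.70, and the log2 change was 1.42 ± 0.377 (SE). These values rest on 312 to 545 reads per IFNg library and 104 to 187 per untreated library, compared with 17584 to 32004 and 1394 to 2856 reads for Sectm1b.

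**Figure D1:**
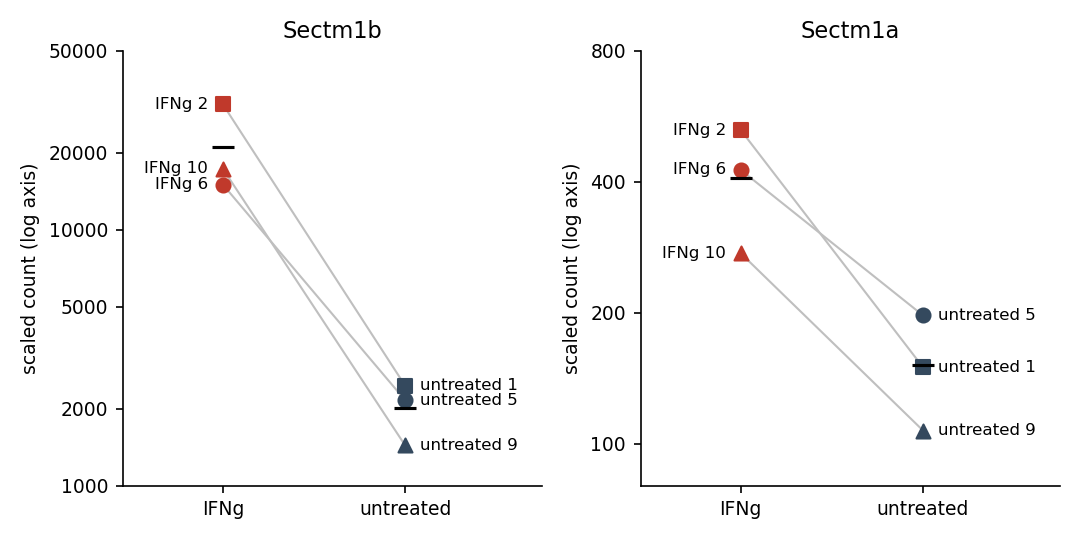
Scaled counts of Sectm1b (left) and Sectm1a (right) in each IFNg and untreated library, on log axes with different ranges, with black bars for the group means and grey lines joining libraries with neighbouring title numbers (6 with 5, 2 with 1, 10 with 9). All IFNg points lie above all untreated points in both panels, as for 8.13% of all tested genes. The ratio of means is 10.4 for Sectm1b and 2.70 for Sectm1a.

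Across the whole table, limma with Benjamini-Hochberg adjustment called 67 genes higher after IFNg, 0.416% of those tested, and 2 lower (0.0124%). Sectm1b was among the 67 and Sectm1a was not, and nothing is read from this because the members were chosen on the same comparison. With neighbouring title numbers as a block, limma called 74 genes higher (0.460%), and edgeR called 63 (0.391%). DESeq2 called 457 higher (3.22%) and 8 lower (0.0563%), and limma on the 4 libraries tagged GFP3 called 1337 higher (8.27%). Leaving out untreated 5 gave 366 higher genes, leaving out IFNg 2 gave 41 and leaving out IFNg 10 gave 43, while the tag as a block gave 108. By log2 change, 69 tested genes lay above Sectm1b and 886, or 5.50% of those tested, above Sectm1a. In scaled counts gained, IFNg mean minus untreated mean, only 10 tested genes lay above Sectm1b. Among the 67 called genes, 40 had a larger log2 change than Sectm1b, but only 5 a higher IFNg mean and 3 a higher untreated mean. The median called gene had 2333 scaled counts in IFNg libraries and 189 in untreated libraries. In scaled counts, not corrected for exon length, Sectm1b stood at the abundant end of the called genes, whose median log2 change was 3.70. These ranks use the comparison on which the members were chosen, so they are descriptions only.

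**Figure D2:**
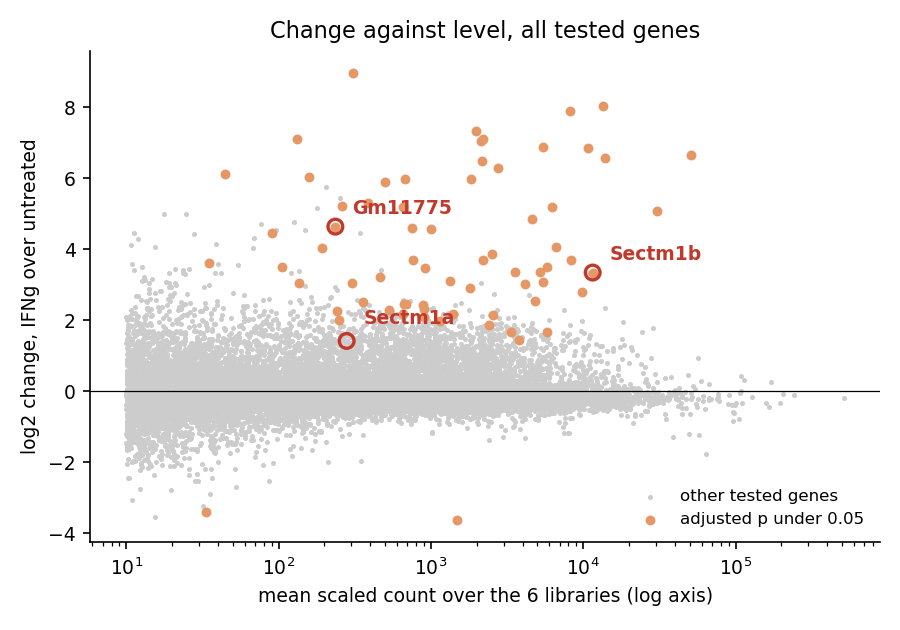
Log2 change, IFNg over untreated, of each of the 16095 tested genes against its mean scaled count over the 6 libraries (log axis), with genes past the adjusted p threshold in orange and Sectm1b, Sectm1a and the neighbouring transcript Gm11775 circled. Sectm1b lies at the right with a change of 3.35, and Sectm1a at 1.42 lies within the upper edge of the grey cloud.

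Levels of different genes were compared per kb of annotated exon, 2.78 kb for Sectm1b and 1.69 kb for Sectm1a. Per kb, Sectm1b stood above 97.6% to 98.9% of tested genes in the IFNg libraries and above 79.6% to 85.7% in the untreated libraries. Sectm1a stood above 55.5% to 68.9% in the IFNg libraries and 42.9% to 51.9% in the untreated libraries, near the middle of the range. The level of Sectm1b per kb was 21.4, 35.7 and 38.4 times that of Sectm1a in IFNg 6, 2 and 10, against 6.66, 9.99 and 8.16 times in untreated 5, 1 and 9. The 2 sets of ratios did not overlap, with means of 31.9 ± 9.14 and 8.27 ± 1.67 (IFNg and untreated, SD, n = 3 each). This restates the larger change of Sectm1b, from the comparison on which the members were chosen, and is a description only. How often ratios of other gene pairs separate in this way was not computed. Of all reads given to the pair, Sectm1b took 97.2% in IFNg 6 (95% Wilson interval 97.0% to 97.5%), the lowest IFNg share, and 94.3% in untreated 1 (93.37% to 95.03%), the highest untreated share. Intervals here cover counting error only, since amplified reads without molecular identifiers are not independent molecules.

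The members followed each other only in part from library to library. IFNg 2 was the highest IFNg library and untreated 9 the lowest untreated library for both. Beyond these, Sectm1b was lower in IFNg 6 than in IFNg 10, whereas Sectm1a was higher in IFNg 6. With libraries joined by neighbouring title numbers, Sectm1b was 6.96-fold higher in IFNg 6 than in untreated 5, 12.6-fold higher in IFNg 2 than in untreated 1 and 12.0-fold higher in IFNg 10 than in untreated 9. The same ratios for Sectm1a were 2.16, 3.51 and 2.56. In both genes the pair tagged GFP1 (6 and 5) had the smallest ratio, a difference that cannot be tested with 1 such library per group. The coefficient of variation was 40.7% in IFNg and 26.0% in untreated libraries for Sectm1b, and 31.0% in IFNg and 29.7% in untreated libraries for Sectm1a.

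The genes whose values over the 6 libraries ran closest to each member were taken by the root mean square difference of log2(scaled count + 1) profiles, each centred on its own mean, among the tested genes. For Sectm1b these were Dtx3l (difference 0.282), a ubiquitin ligase that works with Parp9, then Gbp6 (0.339), a guanylate-binding protein of cell-autonomous defence, Socs3 (0.357), a feedback inhibitor of cytokine receptors, Tmem74b (0.382) and the transcription factor Irf8 (0.384). Irf8 had 16048, 18738 and 16282 scaled counts in IFNg 6, 2 and 10, against 2579, 2788 and 2041 in untreated 5, 1 and 9. Its groups lay far apart and its IFNg libraries were closer together than those of Sectm1b. The log2 changes were 3.03 for Dtx3l, 3.06 for Gbp6, 3.70 for Socs3 and 2.79 for Irf8, given as descriptions with no test, because the genes were taken for a profile that holds this same difference. For Tmem74b the change was 3.33 ± 0.675 (SE) on 254 reads in the IFNg libraries and 19 in the untreated ones.

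For Sectm1a the closest were the DNA repair enzyme Alkbh2 (difference 0.175), the noncoding transcript Gm9920 (0.198), the oligoadenylate synthetase-like gene Oasl2 (0.198), and the necroptosis effector Mlkl (0.200). Mlkl had 1446, 1681 and 1137 scaled counts in IFNg 6, 2 and 10, against 510, 472 and 348 in untreated 5, 1 and 9. Its groups did not overlap, as in 8.13% of all tested genes, but Mlkl was taken for a profile like that of Sectm1a. Its log2 change was 1.68, and that of Oasl2 was 1.49, again with no test. The 2 members lay 1.01 apart on the same measure, a distance that holds the difference between their changes after IFNg. The close genes were taken for small distances, so theirs are no yardstick for that of the members.

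**Figure D3:**
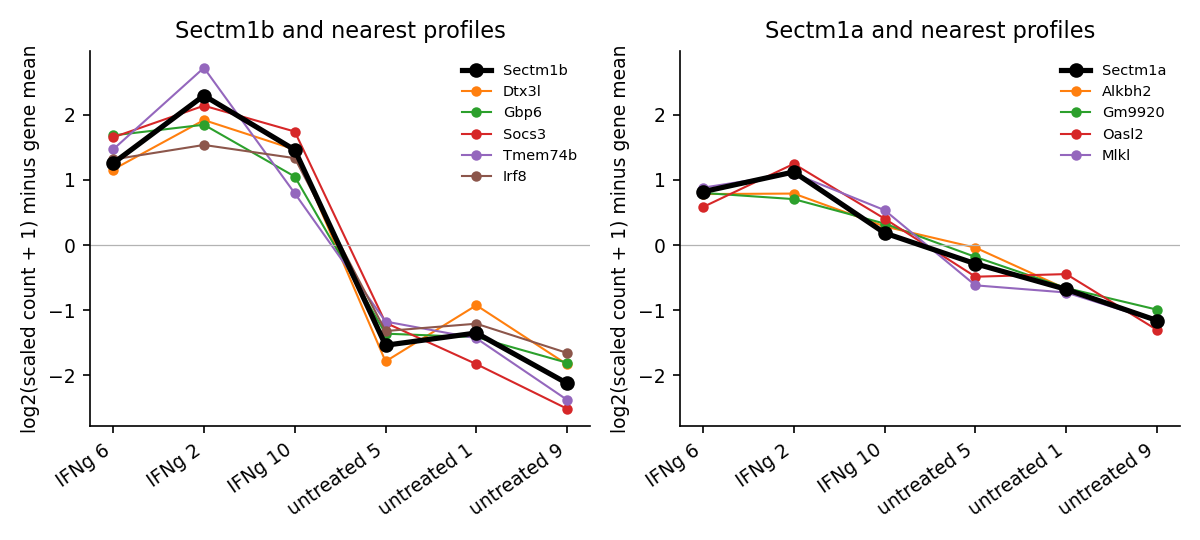
Log2(scaled count + 1) minus each gene's own mean in the 6 libraries, for Sectm1b (left) and Sectm1a (right) in black, the first with the 5 and the second with 4 of the tested genes whose profiles lie closest. Lines only join the points of a gene. Sectm1b and its closest genes drop steeply between the IFNg and untreated libraries, and Sectm1a and its closest genes, among them Mlkl, drop by less.

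Around the pair, a neighbouring noncoding transcript was also higher. Of 20 annotated genes within 200 kb on either side, 15 were found in the table and 12 were tested. In limma 1 rose, Gm11775, and 0 fell, while 11 did not pass, where 0.416% of all tested genes were called higher. The median log2 change of the 12 was -0.10, beside -0.08 for all tested genes. Gm11775 is annotated on the plus strand at chr11:121029402-121052357, and 1100 bases lie between its end and the 3′ end of Sectm1b. It had 327, 600 and 437 scaled counts in IFNg 6, 2 and 10, against 12.6, 22.4 and 16.5 in untreated 5, 1 and 9. The groups lay far apart, and IFNg 2 was highest, as it was for Sectm1b. IFNg 2 was also highest for other called genes, such as Irf1, Irf8 and Gbp2, but not for Irgm1 or Socs1. The log2 change was 4.64 ± 0.401 (SE, limma adjusted p = 7.75e-04, and at most 0.00689 under the 15 alternatives). Gm11775 stood at 2.18%, 1.94% and 2.53% of the Sectm1b value in IFNg 6, 2 and 10, against 0.587%, 0.910% and 1.15% in untreated 5, 1 and 9. The library chemistry does not mark the strand, so reads from the plus strand and reads that run on from Sectm1b past its annotated end cannot be told apart here.

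On the Sectm1a side the nearest tested gene was Tex19.2, a germ cell gene 34.995 kb away. It had 40.1, 13.5 and 9.65 scaled counts in IFNg 6, 2 and 10, against 0, 0 and 4.12 in untreated 5, 1 and 9, where a count of 0 allows 3 reads or up to 3.16 scaled counts per library. Its groups did not overlap and it did not pass (limma adjusted p = 0.342, range 0.222 to 0.884). Its relative Tex19.1, named after its values were seen, had 53.7, 65.6 and 93.9, against 0, 8.60 and 19.6 (log2 3.59 ± 1.03 SE, limma adjusted p = 0.298), and it passed in DESeq2 (0.0407, range of the alternatives 0.028 to 0.884). Uts2r, the urotensin receptor gene, also named after its values were seen, lay below the filter with 39 reads over the IFNg libraries and 1 over the untreated ones, 35.9 times as many after scaling by size factors (exact 95% interval from 6.07 to 1454). Tex19.1 and Tex19.2 are related in sequence, and reads that align to both would fall among those given to no gene, which was not tested. Tex19.1 and Tex19.2 passed the filter on low values only through their IFNg libraries, with untreated means of 9.39 and 1.37 scaled counts. With both counted, 3 of the 12 tested neighbours (Gm11775, Tex19.1 and Tex19.2) were higher in IFNg without overlap. That held for 8.13% of all tested genes, and the count is a description only. Of the other neighbours, Csnk1d, Ogfod3, Hexdc, Narf, Foxk2, Ccdc57 and Slc16a3 had log2 changes of -0.26 to 0.42. Ccdc57 and Narf were lower in IFNg without overlap, where 13.2% of all tested genes did not overlap in either direction.

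**Figure D4:**
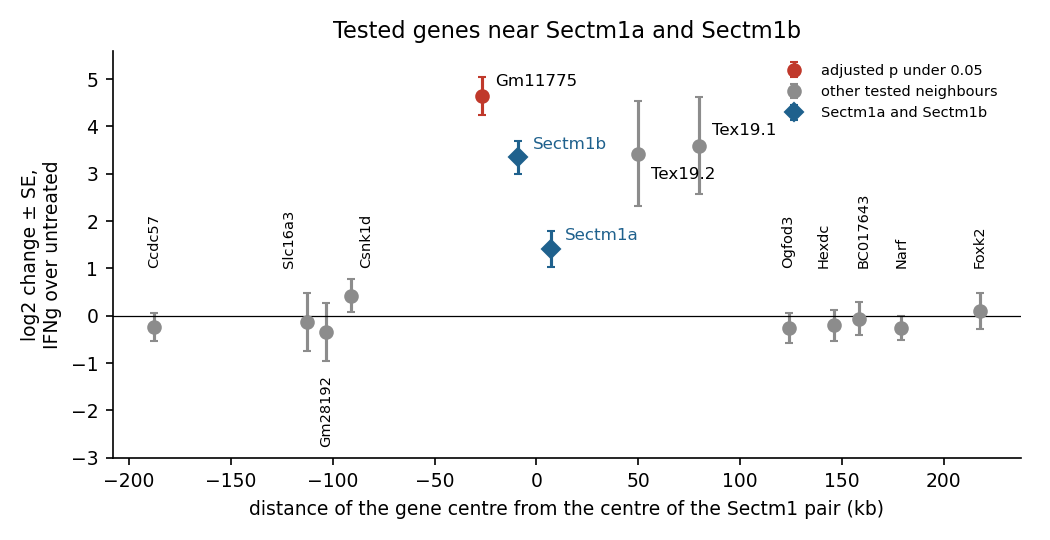
Log2 change ± SE, IFNg over untreated, of the 12 tested genes within 200 kb of the pair and of the pair itself (diamonds), against the distance of each gene's centre from the centre of the pair. Gm11775 at 4.64 is the neighbour that passed, Tex19.2 and Tex19.1 lie high with wide errors, and the other 9 neighbours lie between -0.35 and 0.42.

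The receptors were scarcely measured. Cd7 itself, 14.04 kb from Sectm1b, had 6, 1 and 7 reads in IFNg 6, 2 and 10, against 0, 0 and 2 in untreated 5, 1 and 9. That is 14 reads over the IFNg libraries and 2 over the untreated ones, 6.44 times as many after scaling by size factors (exact 95% interval from 1.48 to 58.4, counting alone), and 122 of its 1133 exon bases lie under an exon of Gm11775 on the other strand. Its groups overlapped and it lay below the filter, so it was not tested. Tnfrsf18 had 69.9, 42.4 and 20.2 scaled counts in IFNg 6, 2 and 10, against 53.7, 58.5 and 49.4 in untreated 5, 1 and 9. Its groups overlapped, with a log2 change of -0.44 ± 0.511 (SE, limma adjusted p = 0.902), whose sign turned without IFNg 10 (0.02). Tnfsf18, the classical ligand of GITR, was not analysed here.

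Most other ligands that lymphocytes read did not pass. A list of 48 ligands of T and NK cells was chosen with earlier results of these data known, so its counts are descriptions only. Of the 48, 40 were found in the table and 31 were tested. In limma 1 of the 31 rose, Icam1, a ligand of leukocyte integrins, and 0 fell, where the background of higher calls was 0.416%. The median log2 change of the 31 was -0.09, beside -0.08 for all tested genes, and 12 of them were above 0. Icam1 had 5645, 16793 and 14022 scaled counts in IFNg 6, 2 and 10, against 199, 366 and 378 in untreated 5, 1 and 9 (log2 5.18 ± 0.447 SE, limma adjusted p = 7.75e-04). Its IFNg libraries stood well above the untreated ones, with IFNg 6 lowest, as for Sectm1b. Cd274, the gene of the inhibitory ligand PD-L1, had 243, 659 and 576, against 1.05, 20.6 and 24.7, and lay just outside the threshold (log2 5.44 ± 0.912 SE, limma adjusted p = 0.0507). It passed in 9 of the 15 alternatives, among them the block of neighbouring title numbers (0.0170), with a range of 2.47e-09 to 0.218. The count of called ligands was therefore 2 with that block and in edgeR, and 3 in DESeq2 and in the GFP3 libraries alone.

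Per kb of exon, Sectm1b had rank 3 of 33 genes, the 31 ligands and the 2 members, in the IFNg libraries and rank 5 in the untreated libraries. In IFNg libraries its level per kb ran from 5394 to 11100, overlapping the 9065 to 19638 of Ceacam1, an adhesion molecule that inhibits T cells, and lying below the 13884 to 21346 of Lgals9, a galectin. It also overlapped the 1898 to 5682 of Pvrl2, an adhesion molecule of the nectin family at rank 4, and lay above the 1295 to 3852 of Icam1. In untreated libraries Sectm1b ran from 516 to 884 per kb, below Pvr (902 to 2150), a ligand of NK cell receptors, and above Btnl1 (344 to 448), a butyrophilin-like gene of gut epithelium. Sectm1a had rank 10 in the IFNg libraries and rank 14 in the untreated ones. Lgals9 did not pass and had a log2 change of 0.37 ± 0.269 (SE, limma adjusted p = 0.854).

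**Figure D5:**
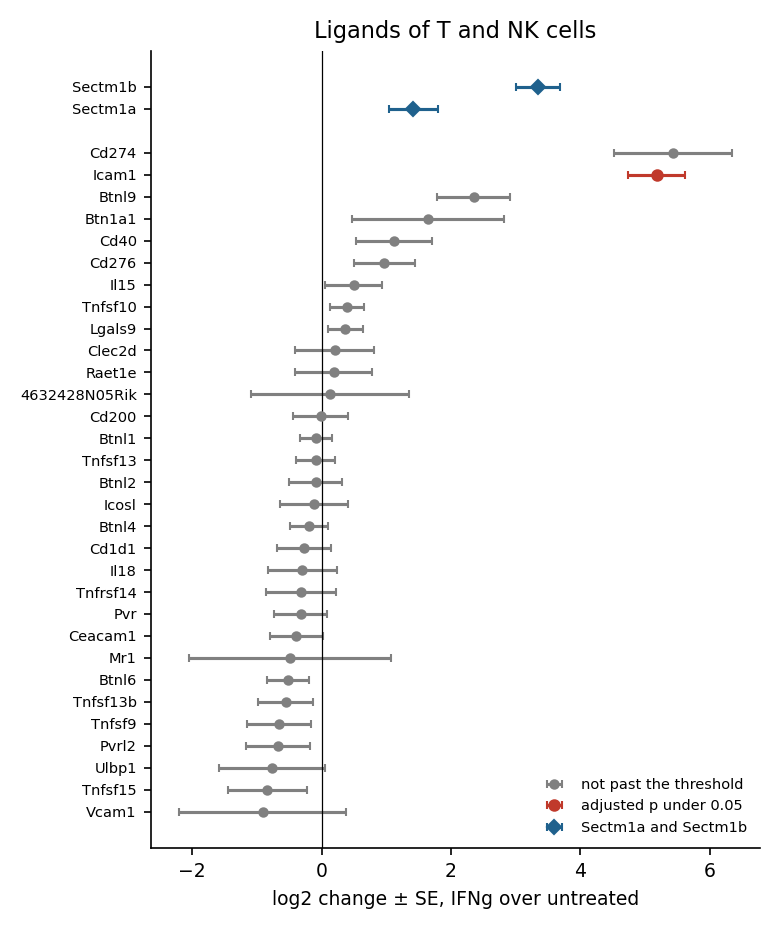
Log2 change ± SE, IFNg over untreated, of Sectm1b and Sectm1a (diamonds) and of the 31 tested ligands of T and NK cells, in order of change. Icam1 in red at 5.18 is the ligand that passed in limma, Cd274 at 5.44 missed the threshold, and 19 of the 31 lie at or below 0.

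In the pathway that IFNg uses, 7 of 20 listed genes rose in limma and 0 fell, where 0.416% of all tested genes were called higher. The median log2 change of the 20 was 1.25, beside -0.08 for all tested genes. They were Irf1 (log2 5.07), Irf8, Irf9, Socs1 (7.34), Socs3, Stat2 (3.11, limma adjusted p = 0.0333) and Nlrc5 (2.30, 0.0446), while Stat2 did not pass with neighbouring title numbers as a block (0.0691, range 5.90e-07 to 0.128) and Nlrc5 did not pass in edgeR (0.0626, range 1.80e-06 to 0.205). The count was 5 in edgeR, 6 with neighbouring title numbers as a block, 10 in DESeq2 and 11 in the GFP3 libraries alone. The receptor chains and kinases did not pass in limma, with log2 changes of -0.71 for Ifngr1, 1.223 for Ifngr2, 0.40 for Jak1 and 1.16 for Jak2. Of the 15 alternatives, Jak2 passed in 1, DESeq2 (adjusted p = 0.00704, highest of the alternatives 0.923). Ifngr2 passed in 2 (adjusted p range of the alternatives 0.00594 to 0.992), and Ifngr1 and Jak1 passed in 0. Of 22 genes known to be induced by IFNg, 16 rose in limma and 0 fell, against the same 0.416% of all tested genes, with a median log2 change of 5.03 beside -0.08. The largest changes among them were those of the GTPases Iigp1 (8.05), Gbp2 (7.90), Tgtp1 (7.05), Irgm2 (6.89), Gbp7 (6.85) and Irgm1 (6.65). All 6 exceeded the log2 change of Sectm1b. In mean IFNg level, not corrected for exon length, Sectm1b at 21049 scaled counts lay between Gbp2 at 16217 and Gbp7 at 21404. All gene lists, those of ligands and markers included, were chosen with earlier results of these data known, so their counts are descriptions only. In bulk samples, more cells that make a transcript and more of it per cell cannot be told apart. The values therefore do not say which share of the sorted cells held Sectm1b or Sectm1a.

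Reads in genes numbered 28508762 to 40224497 per library, and 19734 to 22371 genes had at least 1 read. The crypt stem cell markers Lgr5 and Olfm4 were present in all of them, Olfm4 at 225396 to 240556 scaled counts in IFNg libraries and 219689 to 266604 in untreated libraries, and 0 of 13 stem cell markers passed in limma, edgeR or DESeq2, with 2 at an unadjusted p under 0.05. These 2, named after their values were seen, were Smoc2, with a log2 change of 1.15 ± 0.415 (SE, limma adjusted p = 0.394), and Ascl2, with 1.215 ± 0.514 (SE, limma adjusted p = 0.507). Both had overlapping groups, while Lgr5 had -0.35 and Olfm4 -0.09. Also named after their values were seen, Rgmb was higher (log2 0.68) and Znrf3 lower (-0.64) in IFNg without overlap. Of all tested genes, 13.2% did not overlap in either direction. Of 25 leukocyte markers, 17 were found in the table, and their summed level was 317 to 461 scaled counts in IFNg libraries and 355 to 414 in untreated libraries. The pan-leukocyte gene Ptprc was at 11.1 to 41.2 scaled counts in IFNg and 20.6 to 33.7 in untreated libraries, and the T cell gene Cd3e at 0 to 10.6 in IFNg and 0 to 6.18 in untreated libraries. The highest level of the 17 was that of Cd68, 117 to 218 in IFNg and 120 to 216 in untreated libraries. None of 7 tested leukocyte markers passed in limma, edgeR or DESeq2, with 0 at an unadjusted p under 0.05. Of the 7, Ms4a1 was higher in IFNg without overlap (log2 1.02 ± 0.474 SE, limma adjusted p = 0.579), as 8.13% of all tested genes were. Of 16 markers of Paneth, goblet, enteroendocrine, tuft and absorptive cells 0 passed in limma, edgeR or DESeq2, with 0 at an unadjusted p under 0.05. Their summed level was 100992 to 235117 scaled counts in IFNg libraries and 157931 to 401595 in untreated libraries. It was highest in untreated 9, the library with the lowest values of both members. Among IFNg libraries it was lowest in IFNg 6, where Sectm1b was lowest, and highest in IFNg 10, where Sectm1a was lowest. The part of such cells in the members' values was not tested.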

How the data were processed

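The deposited table gives a signal per gene in each library, scaled counts made by the authors by dividing read counts by 1 size factor per library, per the file's name. The build mm10 and the tools DESeq 1.22.1, HTSeq 0.5.3, STAR 2.5.0a and cutadapt 1.6 appear per the submitters' processing notes, which state no roles here. The annotation and strand setting used for counting are not stated there. Per the labels' protocols, 2 ng of total RNA went through 12 amplification cycles of SMART-Seq v4, and 10 ng of cDNA went into a KAPA Hyper preparation with 8 cycles. This chemistry marks no strand and carries no molecular identifiers. The 4 rows of reads given to no gene were left out of tests and totals. Reads with more than 1 alignment held 18.5% to 25.0% of all values. Unaligned reads held 8.83% to 15.4%, those in no gene 9.67% to 14.2%, and ambiguous ones 0.948% to 1.20%.

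Values in a library rose in even steps, and dividing by the step gave whole reads for 100% of 138762 values within 0.01 of a read. A read was worth 0.853 to 1.05 scaled counts.

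Groups came from titles and treatment labels. Values were tested as log2(scaled count + 1), two-sided, by limma 3.58.1 (R 4.3.3) with a trended, robust prior. Genes needed a mean scaled count of 10 or more, and a gene passed below an adjusted p (Benjamini-Hochberg over all tested genes) of 0.05. Alternatives on the recovered reads were edgeR 4.0.16 (quasi-likelihood, TMM) and DESeq2 1.42.0, where edgeR made 63 and DESeq2 457 higher calls. The limma, edgeR and DESeq2 steps were tested on simulated data. Symbols of the lists were matched to the table directly or through GENCODE M21 gene IDs. Promoters came from RefSeq on GRCm38.p6 and transcripts and gene positions from GENCODE M21.

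The members and gene lists were chosen with earlier results of these data known. Named genes were the members, the receptors, the called genes of each list (at most 6 by size of change), a few fixed pathway genes, the nearest and the called neighbours, and the 5 closest profiles per member. A gene that this rule names is not reported here. Libraries with neighbouring title numbers within a tag (6 and 5, 2 and 1, 10 and 9) were taken as pairs in the block, because across genes they deviated together from their group means (correlations of 0.302, 0.404 and 0.252). The labels state no pairing.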

Additional observations from a re-analysis of the deposited data

How the results depend on the processing

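The log2 change of Sectm1b was 3.03 to 3.62 and that of Sectm1a 1.19 to 1.68 over the 15 alternatives, each within 1 SD of the spread between replicates. Higher genes numbered 108 with the tag as a block, 457 in DESeq2, 1337 in the GFP3 libraries alone, and 41 to 366 with 1 library left out, against 67. Lower genes numbered 1 with the replicate block and with a pseudocount of 0.5, 8 in DESeq2, 11 in the GFP3 libraries alone, and 1 to 3 with 1 library left out, against 2. Called pathway genes numbered 5 in edgeR, 6 with the replicate block, 10 in DESeq2 and 11 in the GFP3 libraries alone, against 7. With 1 library left out they numbered 5 to 8. Called ligands numbered 2 with the replicate block, the tag as a block, a pseudocount of 5, no filter, TMM scaling and edgeR, 3 in DESeq2 and in the GFP3 libraries alone, and 1 to 2 with 1 library left out, against 1. Called neighbours numbered 2 in DESeq2 and in the GFP3 libraries alone, against 1. The cause of these shifts was not tested. The log2 change of Tnfrsf18 was -0.44, and it lay between -0.85 (without IFNg 6) and 0.019 (without IFNg 10) with 1 library left out. TMM scaling moved the median of all genes from -0.08 to -0.12 and turned no named gene. Among the genes whose calls are given, the replicate block changed those of Cd274 and Stat2 and no other. At a count of 0, up to 3 reads per library remain possible, which limits Cd7, Tex19.2 and Uts2r.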
